A study of Mus musculus with 2 samples.

Results

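The miR-34 and miR-449 family was examined in the adrenal gland through its 6 mouse genes, Mir34a, Mir34b, Mir34c, Mir449a, Mir449b and Mir449c, out of 2202 miRNA genes with deposited counts. The rule that picks the members uses their names and the seed they are known to share and no measured value, though earlier results of these data were known when it was set. All 6 were found by matching gene identifiers to GENCODE M21. MicroRNA sequencing was done on total RNA from adrenal glands of B6CASTF1/J females, an F1 hybrid strain, aged 2 months. The labels gave 1 group with 2 biological replicates, no treatment and no other genotype, and the tissue labels number the replicates as different females. Both carry 1 donor label, so the spread between them may in part be technical. With a single group there was no contrast between conditions, and the comparisons below are between members and between the 2 libraries.

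A microRNA is a short RNA that guides a silencing complex to messenger RNAs, mainly through its seed, bases 2 to 8 from the 5′ end, so microRNAs with 1 seed can bind overlapping targets. The miR-34 genes are known as direct transcriptional targets of the tumour suppressor p53 in mouse and human cells and as brakes on the cell cycle. Mir34b and Mir34c are transcribed together as 1 precursor. The Mir449 genes lie in an intron of Cdc20b, and miR-449 and miR-34b/c are best known from multiciliated epithelia and from testis. The adrenal gland joins a cortex that makes steroid hormones to a medulla of neuroendocrine cells that make catecholamines.

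The shared seed is shown first, since it defines the family. The RefSeq table of mouse microRNAs (build GRCm38.p6) gave 9 mature sequences, from 5 of the 6 genes. Those of miR-34c-5p and Mir449b are not shown here. The 5′ arms are given 5′ to 3′ with the seed in capitals.
mmu-miR-34a-5p: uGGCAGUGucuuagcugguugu
mmu-miR-34b-5p: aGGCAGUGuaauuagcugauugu
mmu-miR-449a-5p: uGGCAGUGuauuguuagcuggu
mmu-miR-449c-5p: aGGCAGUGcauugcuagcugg

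All 4 of these arms carried the seed GGCAGUG, and no other mature sequence among the 1738 in the table did. The Mir34c hairpin also held these letters once, from base 14 of its 77 bases. Beyond the seed the arms differed. Position by position from the 5′ end, without gaps, miR-34a-5p and miR-449a-5p had the same base at 15 of 22 positions. By the same count miR-449a-5p and miR-449c-5p matched at 18 of 21, and miR-34a-5p and miR-34b-5p at 11 of 22. The first and last counts understate likeness, since miR-34a-5p, miR-34b-5p and miR-449a-5p all hold the stretch uuagcug, at different positions.

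The opposite arms are shown because the deposited counts were made per hairpin and do not separate them.
mmu-miR-34a-3p: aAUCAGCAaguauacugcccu
mmu-miR-34b-3p: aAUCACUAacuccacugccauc
mmu-miR-34c-3p: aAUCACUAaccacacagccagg
mmu-miR-449a-3p: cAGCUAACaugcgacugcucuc
mmu-miR-449c-3p: cAGUUGCUagcugcacuacccu

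These arms did not carry the family seed and held 4 different seeds, of which miR-34b-3p and miR-34c-3p shared AUCACUA. A hairpin's count therefore cannot be read as the count of 1 seed. No member's hairpin shared an exact stretch of 20 bases, or of 18, with any other annotated mouse hairpin. The longest exact stretch common to any 2 members was 11 bases. Likeness that allows for mismatches was not measured between hairpins, and miR-34c-5p was not among the mature arms compared.

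The 6 genes occupy 3 loci (mm10, counted from 1). Mir34a (ENSMUSG00000065493.1) occupies the plus strand of chromosome 4 at 150068454 to 150068555, and the last 17 bases of its hairpin overlap an exon of Gm37795, an unclassified transcript on that strand. On the minus strand of chromosome 9 are Mir34b (ENSMUSG00000065492.1) at 51103562 to 51103645 and Mir34c (ENSMUSG00000065587.1) at 51103034 to 51103110. These hairpins are separated by 451 bases, and both lie opposite an intron of Btg4, a gene of the plus strand. Mir449c (ENSMUSG00000076146.1, 113035983 to 113036091), Mir449b (ENSMUSG00000078027.1, 113037419 to 113037498) and Mir449a (ENSMUSG00000065575.1, 113037534 to 113037624) follow each other on the plus strand of chromosome 13, each in an intron of Cdc20b on its own strand. No miRNA gene overlaps a member on either strand, and the members have no other miRNA gene within 10 kb.

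**Figure D1:**
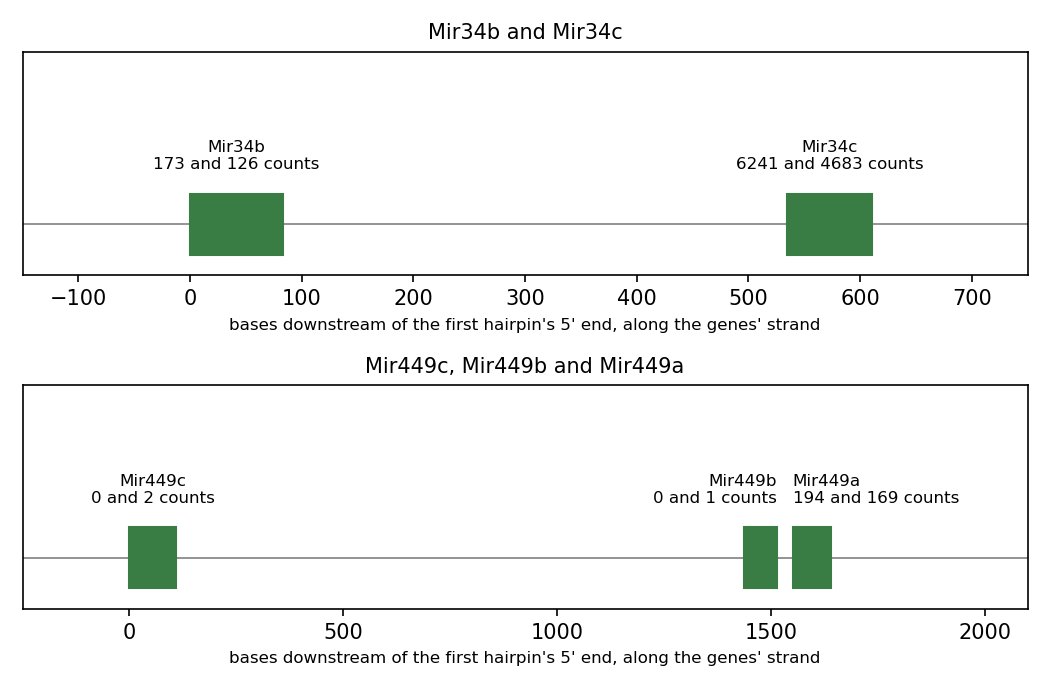
Map of the Mir34b and Mir34c locus (upper) and of the Mir449 locus (lower), in bases along the genes' strand from the 5′ end of the first hairpin, with boxes for the hairpins. Labels give the counts in replicate 1 and replicate 2; Mir34c with 6241 and 4683 counts and Mir449a with 194 and 169 counts lead their loci.

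Sense-strand gene counts totalled 2839732 in replicate 1 and 2280028 in replicate 2, and levels are counts scaled to a total of 1000000 of these (CPM). A count of 0 allows up to 3 counts, which is 1.06 CPM in replicate 1 and 1.32 CPM in replicate 2. The tables hold miRNA genes only, so the tissue was checked by miRNAs. The 4 neuroendocrine miRNAs, led by Mir375, came to 4.28% of all counts in replicate 1, against 4.01% in replicate 2. None of the 4 was called as differing between the libraries (adjusted p under 0.05 in an exact binomial test and at least 2-fold, which 18.7% of all tested genes met). Their ratios of replicate 1 over replicate 2 were not alike: 1.04 for Mir375, 1.45 for Mir7-1, 1.45 for Mir7b and 0.526 for Mir7-2. Most of the sum was Mir375 (39421 CPM in replicate 1 and 37780 CPM in replicate 2). The 7 miRNAs known from steroidogenic cells came to 5.16% in replicate 1 and 2.87% in replicate 2, and their members were split. Of the 7, Mir21a, Mir125a and Mir132 were called higher in replicate 1, beside 10% of all tested genes (ratios of replicate 1 over replicate 2 of 2.58, 2.45 and 2.44), and the other 4 were not called, with ratios from 0.624 for Mir320 to 1.42 for Mir212. The libraries differed in other tissues' miRNAs too. The 9 muscle miRNAs summed to 953 CPM in replicate 1 and 4.39 CPM in replicate 2, with Mir133a-1, Mir133a-2 and Mir133b at 0 in both. Reads aligned to several places (28.8% in replicate 1 and 25.3% in replicate 2) enter no gene. A 0 for a miRNA whose reads also fit another place therefore need not mean absence, and the muscle sum may be too low. The 3 erythroid miRNAs summed to 643 CPM in replicate 1 and 14488 CPM in replicate 2, with none at 0. Mir451a and Mir144 made up that difference, while Mir486 had 65.9 CPM in replicate 1 and 58.3 CPM in replicate 2. Whether the counts of Mir486 lack reads aligned to several places was not tested.

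The first question was how much of the adrenal profile the family makes up and which genes carry it. The 6 members summed to 11547 counts in the replicate 1 library and 12607 in that of replicate 2. This was 0.407% and 0.553% of the counts, on average 0.480% ± 0.103 (SD, n = 2), or 4798 CPM. With reads aligned to several places in the total it was 2456 CPM, so the share holds for assigned reads only. Mir34a and Mir34c carried nearly all of it. Of the family's counts, the 3 Mir34 genes took 98.3% in replicate 1 (95% Clopper-Pearson interval 98.1 to 98.5), against 98.6% in replicate 2 (98.4 to 98.8).

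Mir34a, the member best known as a p53 target, had 4939 counts in replicate 1 and 7626 in replicate 2, or 1739 and 3345 CPM. Its mean was 2542 ± 1135 CPM (SD, n = 2), the family's highest by mean, at rank 55 of the 2202 genes. Replicate 2 was the higher library, and the SD of Mir34a was the largest among the 6 members.

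Mir34c, the downstream hairpin of the chromosome 9 pair, had 6241 and 4683 counts, or 2198 CPM in replicate 1 and 2054 CPM in replicate 2. Its mean of 2126 ± 102 CPM (SD, n = 2) put it at rank 59. The 2 libraries lay close together, and both of its values fell between the 2 values of Mir34a. Mir34a and Mir34c therefore could not be ranked beyond the spread of Mir34a.

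Mir449a, the last hairpin of the Cdc20b intron, had 194 and 169 counts, or 68.3 CPM in replicate 1 and 74.1 CPM in replicate 2 (mean 71.2 ± 4.11, SD, n = 2, rank 199). Mir34b, the upstream hairpin of the chromosome 9 pair, had 173 and 126 counts, or 60.9 and 55.3 CPM (mean 58.1 ± 4.00, SD, n = 2, rank 214). Mir449a was above Mir34b in both libraries, and both values of Mir449a exceeded both of Mir34b. Within replicate 1, however, the ratio of their counts was 1.12 with an interval that included 1 (0.909 to 1.38).

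Mir449c had 0 counts in replicate 1 and 2 in replicate 2. Mir449b had 0 and 1. Neither stood above the floor of 3 counts in either library, so neither could be called detected at this depth, and they could not be ranked against each other.

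**Figure D2:**
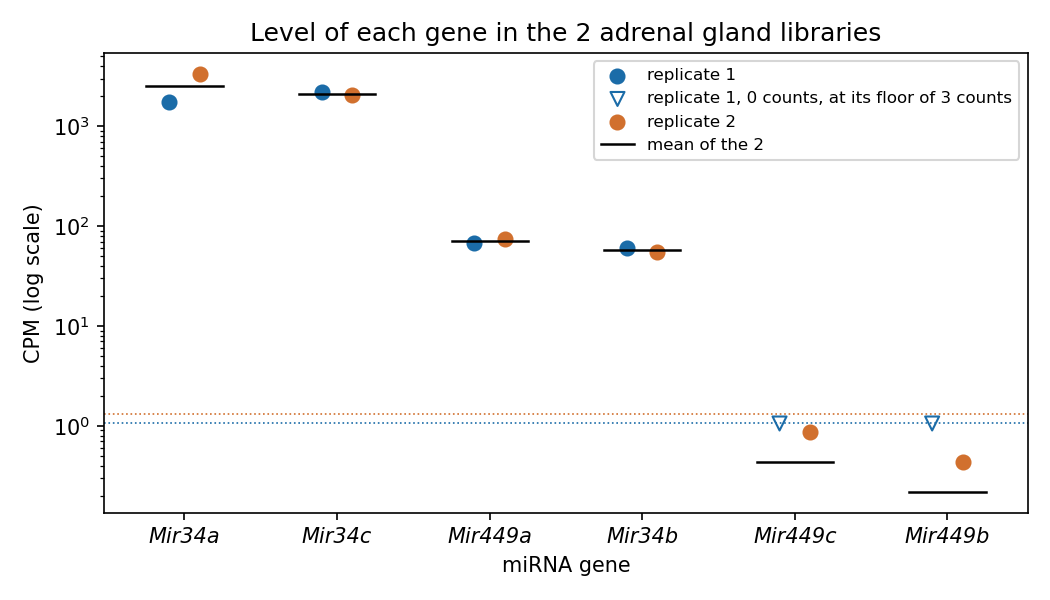
CPM (log axis) of each member in replicate 1 and replicate 2, with the mean as a bar, dotted lines at each library's floor of 3 counts, and open triangles at the floor for 0 counts. Mir34a and Mir34c lie at 1739 CPM or above in both libraries, Mir449a and Mir34b between 55.3 and 74.1 CPM, and Mir449c and Mir449b below the floors.

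For scale, the median tested gene had a mean of 101 CPM, where a gene was tested if its mean count was at least 10. By that rule 369 genes were tested, among them 4 of the 6 members. Mir34a and Mir34c stood above that median and Mir449a and Mir34b below it. The genes nearest Mir34a in mean CPM over the 2 libraries were Mir324 (2647 ± 843 CPM) and Mir7b (2623 ± 675 CPM) above it and Mir17 (2282 ± 780 CPM) and Mir676 (2279 ± 55.4 CPM) below it. These were picked as nearest in level, so their lying within the SD of Mir34a was given by the choice. Mir34c lay between Mir140 (2257 ± 1194 CPM) and Mir361 (2008 ± 294 CPM), with Mir676 and Mir671 (1970 ± 823 CPM) next. Mir449a lay among Mir6236, Mir5121, Mir374b and Mir376b, at means of 69.4 to 74.6 CPM. Mir34b lay among Mir224, Mir301, Mir184 and Mir345, at means of 55.7 to 58.9 CPM.

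**Figure D3:**
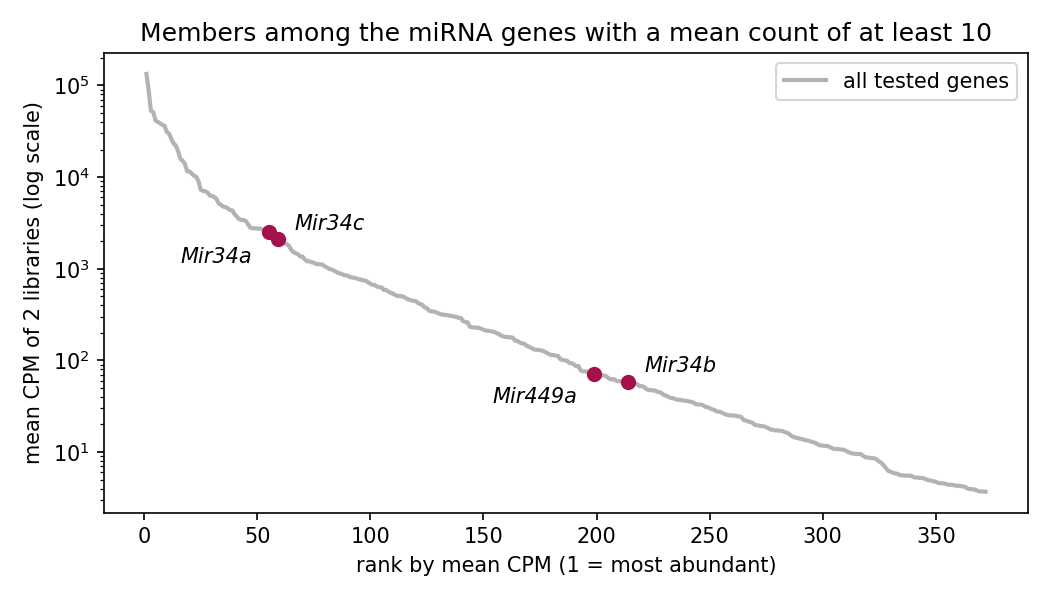
Mean CPM of the 2 libraries (log axis) against rank for the 369 tested genes (grey line), with the 4 tested members as points. Mir34a and Mir34c sit at ranks 55 and 59, and Mir449a and Mir34b at ranks 199 and 214.

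The next comparison was between hairpins that lie side by side. Such a ratio within a library needs no scaling between libraries. Intervals are exact 95% intervals for counting error only, and efficiency of capture can differ between small RNAs. Mir34c exceeded Mir34b 36.1-fold in replicate 1 (31.0 to 42.2) and 37.2-fold in replicate 2 (31.1 to 44.7). The ratio in replicate 1 divided by that in replicate 2 was 0.971 (0.763 to 1.23), so the pair kept nearly the same proportion in both libraries. In the Cdc20b intron, Mir449a exceeded the neighbouring Mir449b and Mir449c at least 64.7-fold each in replicate 1, computed against the floor of 3 counts per library. In replicate 2 the counts of Mir449a were 169-fold those of Mir449b (29.9 to 6714) and 84.5-fold those of Mir449c (23.0 to 703). These folds rest on 1 and 2 counts, below the floor, so their size was not resolved. The Mir449b and Mir449a hairpins are separated by 35 bases. At both loci, then, 1 hairpin held nearly all counts.

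In contrast, the proportion of Mir34a to the other tested members shifted between the libraries. The count of Mir34c divided by that of Mir34a was 1.26 in replicate 1 (1.22 to 1.31) and 0.614 in replicate 2 (0.592 to 0.637). The order of the family's 2 leading genes was thus opposite in the 2 libraries, and the ratio of these ratios was 2.06 (1.95 to 2.17). Of the family's counts in replicate 1, Mir34a took 42.8% (41.9 to 43.7) and Mir34c 54.0% (53.1 to 55.0). Of those in replicate 2, Mir34a took 60.5% (59.6 to 61.3) and Mir34c 37.1% (36.3 to 38.0).

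Mir34a exceeded Mir34b 28.5-fold in replicate 1 (24.5 to 33.4) and 60.5-fold in replicate 2 (50.8 to 72.8). It exceeded Mir449a 25.5-fold in replicate 1 (22.1 to 29.5) and 45.1-fold in replicate 2 (38.7 to 52.9). Between Mir34c and Mir449a the ratio was 32.2 in replicate 1 (27.9 to 37.3), against 27.7 in replicate 2 (23.8 to 32.5). The ratio of these ratios was 1.16, with an interval that included 1 (0.936 to 1.44). Among the 4 tested members, the 3 ratios with Mir34a differed between the libraries beyond counting error. For the 3 ratios without it, among them Mir449a over Mir34b at 1.12 in replicate 1 and 1.34 in replicate 2, the ratio of ratios had an interval that included 1. Each replicate is 1 tissue sample and 1 library, so these cannot be told apart as sources of the difference, and whether the animals differ rests on the labels.

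**Figure D4:**
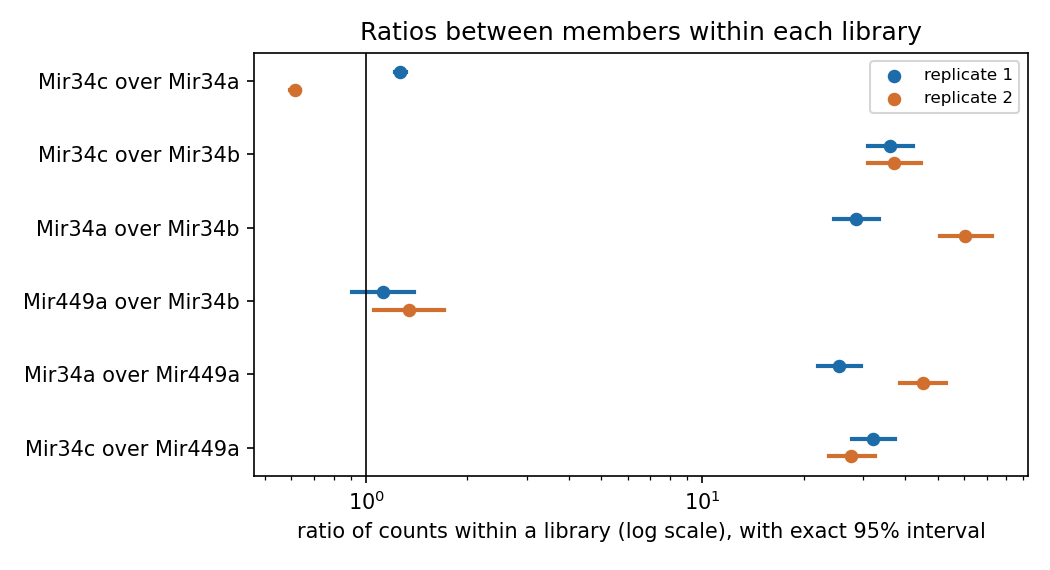
Ratio of counts between members within replicate 1 and within replicate 2 (log axis), with exact 95% intervals. The ratios with Mir34a lie apart in the 2 libraries (1.26 and 0.614 for Mir34c over Mir34a), while Mir34c over Mir34b is 36.1 and 37.2.

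The last comparison set the CPM of replicate 1 against replicate 2. For each tested gene its counts were set against the library totals in an exact binomial test, two-sided, and p-values were adjusted by Benjamini-Hochberg over the 369 genes. A gene was called where the adjusted p was under 0.05 and the ratio at least 2-fold either way. The test speaks of these 2 libraries, not of a condition, and its error is counting error. Of the 4 tested members, 0 were called, beside 18.7% of all tested genes (10% higher in replicate 1 and 8.67% higher in replicate 2), and 2 had an adjusted p under 0.05, beside 62.6% of all. With so few members these counts say nothing particular about the family.

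Mir34a had 0.520 times the CPM in replicate 1 that it had in replicate 2 (95% interval 0.502 to 0.539, log2 ratio -0.94, adjusted p = 7.92e-288 by the exact binomial test). It therefore lay just short of the 2-fold threshold, and 20.1% of the tested genes had a larger log2 ratio in size. Mir34c had a ratio of 1.07 (1.03 to 1.11, adjusted p = 0.000962 by the exact binomial test). In CPM this was a difference of a few percent, resolved by its depth, and its size depended on the scaling. With unstranded counts it was lost (1.03, adjusted p = 0.190 by the same binomial test), though only the totals changed and not the counts of Mir34c. It was larger with TMM scaling (1.159, adjusted p = 5.98e-14 by the same test) and median-of-ratios scaling (1.199, adjusted p = 1.66e-20 by the same test). Mir34b had a ratio of 1.10 (0.871 to 1.40). Mir449a had a ratio of 0.922 (0.746 to 1.14), and its direction turned under median-of-ratios scaling (1.03). The last 2 intervals included 1. For comparison, the median size of the log2 ratio over all tested genes was 0.45, and the sizes for Mir34c, Mir34b and Mir449a were 0.10, 0.14 and 0.12.

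Several lists differed between the same 2 libraries. Replicate 2, where Mir34a was the higher, also had more Mir451a and Mir144, though not Mir486 by its assigned counts (ratio 1.13). Replicate 1 had the muscle miRNAs and the higher sum of steroidogenic miRNAs (51622 CPM, against 28727 CPM in replicate 2). Much of that sum was Mir21a (33612 and 13012 CPM). Mir125a, Mir132 and Mir212 were also higher in replicate 1, and Mir320, Mir455 and Mir214 lower (0.624, 0.871 and 0.900). Replicate 1 also had 4 of 7 tested epithelial miRNAs called higher, beside 10% of all tested genes. With the muscle and erythroid miRNAs left out of the totals the ratio of Mir34a was 0.513. In a bulk tissue, fewer cells of a type and less RNA per cell cannot be told apart, and the part of these lists and of cell composition in this ratio was not tested.

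**Figure D5:**
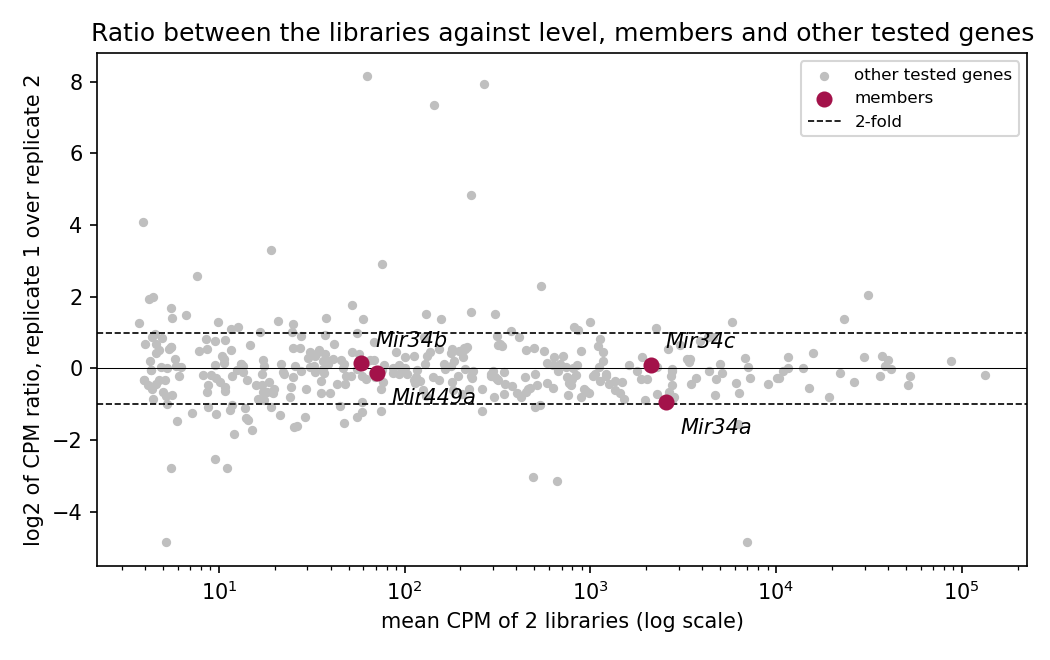
Log2 of the CPM ratio of replicate 1 over replicate 2 against mean CPM (log axis) for the tested genes, with dashed lines at 2-fold; Mir452, at 0 counts in replicate 2, is not drawn. Mir34a lies at -0.94, just inside the lower line, while Mir34c, Mir34b and Mir449a lie within 0.14 of 0, Mir449a on the other side of 0 under median-of-ratios scaling.

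Other miRNAs linked to p53 were read beside the family. The list held 16 genes, the 3 Mir34 genes included, and 14 of the 15 found in the tables were tested. None was called higher in replicate 2, 1 (Mir203) was called higher in replicate 1, beside 10% of all tested genes, and 13 were not called. The list's median log2 ratio was 0.03, against -0.07 over all tested genes. Mir107, which lies in a pantothenate kinase gene, had a ratio of 0.547 (1940 CPM in replicate 1 and 3549 CPM in replicate 2), near that of Mir34a. Mir16-1, of the family that restrains cyclins, had a ratio of 0.675 (744 and 1102 CPM), and its neighbour Mir15a 1.02 (1131 and 1105 CPM). Mir16-1 makes the same mature miRNA as Mir16-2, so its counts may lack reads that fit both. Mir143 (0.910) and Mir145a (0.871), miRNAs of smooth muscle and fibroblasts, differed little. By these counts the epithelial Mir192 (31.3 and 30.7 CPM) and Mir194-2 (40.5 and 37.3 CPM) stood below Mir34b in both libraries. As for Mir16-1, reads that fit both Mir194-1 and Mir194-2 may be missing, so the counts of these 2 genes may be too low. Mir215 and Mir141 had 14 counts or fewer in each library, Mir194-1 at most 3, and Mir605 was not analysed here.

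Epithelial and gonadal miRNAs were read beside Mir449a and Mir34b/c because these are known from ciliated epithelium and testis. Of 8 epithelial miRNAs 7 were tested, and 4 (Mir200a, Mir200b, Mir429 and Mir203) were called higher in replicate 1, 0 higher in replicate 2 and 3 not (median log2 ratio 1.08), beside 10% and 8.67% of all tested genes called in these directions. The calls of Mir200b, Mir200a and Mir429 rested on few counts (99 and 8, 19 and 4, 37 and 5). The ratios of those not called were 1.15 for Mir200c, 1.02 for Mir141 and 1.13 for Mir31. None of the 8 was at 0 in both libraries. Their summed level was 4871 CPM in replicate 1 and 3796 CPM in replicate 2, mostly from Mir31 (3605 and 3194 CPM) and Mir203 (1166 and 554 CPM). The keratinocyte miRNA Mir205 had 5 and 6 counts. Beside these, Mir34c had a ratio of replicate 1 over replicate 2 of 1.07, Mir34b 1.10 and Mir449a 0.922, none of them called, and the intervals of Mir34b and Mir449a included 1, so these 2 had no resolved direction. Of 9 X-linked miRNAs known from the gonads, the 8 found in the tables had 0 counts in both libraries, as had 1463 of the 2202 genes in all. The part of epithelial cells in the levels of Mir449a and Mir34b/c was not tested.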

How the data were processed

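The authors deposited raw read counts for each miRNA gene, 1 table per library. Per the deposited README files they used mm10 with GENCODE M21. Aligner and counter are not given in the sources used here. Of the single-strand columns, the one with the larger total (the third column in both tables) was used. Rows that name no gene stayed out of totals: unmapped, multiply aligned, outside genes and ambiguous reads were 29.8%, 28.8%, 10.8% and 8.62e-05% of 9278190 reads in replicate 1, and 39.7%, 25.3%, 8.60% and 0% of 8659511 in replicate 2. All 2202 identifiers matched GENCODE M21. Sequences came from RefSeq (GRCm38.p6), and 5 of the 6 hairpins were matched, at the same positions.

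CPM, exact binomial tests, intervals and Benjamini-Hochberg values were computed in Python 3.11.15 with scipy 1.17.1. The test was tried on simulated counts that held counting error only, so variation between samples was not covered. Alternatives used TMM (edgeR 4.0.16), median-of-ratios (DESeq2 1.42.0), unstranded counts, other totals and count minima. In replicate 1 a single count equals 0.352 CPM, in replicate 2 0.439 CPM. With no stated molecular identifiers, intervals and floors cover counting error only. Named genes were the members, the 2 tested genes nearest each in level on either side, and the p53-linked and epithelial lists. The endothelial, stromal and leukocyte lists gave 0 of 1, 0 of 4 and 1 of 4 tested genes called (Mir223, higher in replicate 1), beside 18.7% of all tested genes. The members and lists were chosen with earlier results of these data known.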

Additional observations from a re-analysis of the deposited data

Results flagged for a closer look

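Counts on the strand opposite to Mir34b, which enter no value above, stood over what a count of 0 allows in replicate 1. They numbered 17 in replicate 1 and 3 in replicate 2, against 173 and 126 on its own strand. This was 8.95% of the stranded counts of Mir34b in replicate 1 (95% Clopper-Pearson interval 5.30 to 13.9) and 2.33% in replicate 2 (0.482 to 6.65). Of the 32 genes with such counts and no miRNA gene on the other strand, Mir34b held the third highest number, after Mir203 (147 and 75) and Mir708 (17 and 11). The other 5 members had 0 such counts in both libraries. On that strand Mir34b lies in an intron of Btg4, and the source of these counts was not tested.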

How the results depend on the processing

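None of the 4 tested members was called under any scaling, column, total or count minimum tried. Of 73 recomputed values, 62 stayed within 1 SD or kept direction and call. Those without a replicate were left aside, since with 2 samples they lie within 1 SD by construction. Some of the 62 could not change. A count minimum leaves a member's ratio as it is, and unstranded counts left the count ratios among Mir34a, Mir34c and Mir449a the same. Mir34c was among those kept, although with unstranded counts its adjusted p rose to 0.190 by the exact binomial test. The direction of Mir449a, which was not called, turned under median-of-ratios scaling (ratio 1.03), where the median log2 ratio of all tested genes moved by 0.16, and by 0.12 with TMM; ratios within a library do not depend on this. Mir34a had ratios from 0.500 (unstranded) to 0.583 (median-of-ratios). With unstranded counts mean CPM was 2971 for Mir34a, 71.6 for Mir34b, 2468 for Mir34c, 82.8 for Mir449a and 5595 for the family. The values for Mir34a and the family lay within 1 SD, as their SDs were wide. Mir34c over Mir34b (geometric mean) was 34.5 in place of 36.6. The settings for this ratio and for the family sum were added after seeing the data. With multiply aligned reads in the total, mean CPM was 1300.2 for Mir34a, 29.8 for Mir34b, 1089 for Mir34c, 36.5 for Mir449a and 2456 for the family. Genes called between the libraries were 69 (37 higher in replicate 1, 32 in replicate 2), 68 with median-of-ratios scaling (45 and 23) and 33 of 234 at a mean count of at least 100. Leaving out either replicate left a level without SD or test: 1739 to 3345 CPM for Mir34a and 42.8% to 60.5% for its share of the family. Mir449b and Mir449c are limited by depth. No paired analysis was possible because the labels give a single group.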

Other observations

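As a description added after the values were seen, Mir34b and Mir34c were set beside other neighbouring hairpins. There were 388 pairs of tested genes on 1 strand within 10 kb, from 161 genes, many of them in the same clusters and so not independent. The log2 difference in mean level was 5.19 for Mir34c and Mir34b, against a median of 2.33, and 67 of the 388 pairs (17.3%) differed more. Their log2 ratios between the libraries differed by 0.04, against a median of 0.59, and 12 pairs (3.09%) differed less. No test was made of this.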
